A study of Mus musculus with 6 samples.

Results

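Cycling lung cells are the small fraction of cells in the juvenile mouse lung whose RNA shows that they were copying their DNA or dividing when the tissue was taken apart. A cell was called cycling when it carried at least 5 unique molecular identifiers (UMIs, each standing for 1 captured RNA molecule) summed over 8 genes, Mki67, Top2a, Cdk1, Ccna2, Ccnb2, Nusap1, Birc5 and Tpx2. This rule found 392 cycling cells among 70427 kept cells of 4 lung libraries, and 78320 cells were kept in the 6 libraries of the series. Each cycling cell was then placed in a lineage by the marker set that held most of its UMIs, which was Pecam1, Cldn5 and Egfl7 for endothelial cells, Etv5, Slc34a2 and Epcam for epithelial cells, Col1a2, Col3a1 and Pdgfra for mesenchymal cells, and Ptprc and Laptm5 for immune cells. The members were thus chosen by their UMI counts of the 8 genes and sorted by those of the lineage markers, so the levels of these genes are given as a description and carry no test.

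The study removed signals that pericytes, the cells wrapped around capillaries, send to their neighbours in the growing organ. The lung libraries came from mice at postnatal day 21 and formed 2 pairs, a Bdnf lox/lox control with a Bdnf iPCKO and an Hgf lox/lox control with an Hgf iPCKO. Both iPCKO genotypes carry the tamoxifen-inducible Pdgfrb(BAC)-CreERT2 transgene, which acts in pericytes and other mural cells, together with loxP-flanked Bdnf or Hgf alleles. The controls carry the loxP-flanked alleles without the transgene, and Cre activity was induced with 50 µg tamoxifen on each of postnatal days 1 to 3. Every library pooled cells of 2 littermates irrespective of sex, and all 4 lung suspensions were treated with red blood cell lysis solution and passed over magnetic beads that remove CD45+ cells and Ter119+ erythrocytes. With 1 library per genotype there is no replicate, so no p-value is given, the difference between 2 libraries cannot be told apart from the difference between 2 genotypes, and every interval is a 95% interval that covers counting error only, not differences between mice or between cells.

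A dividing cell passes through a gap phase in which D-type and E-type cyclins release E2F transcription factors, an S phase in which the genome is licensed and copied, and a G2 and M phase in which chromosomes are condensed, attached to the spindle and pulled apart before the cell splits. Genes of S phase are largely driven by E2F sites in their promoters, and genes of G2 and M by a short element called CHR, usually next to CCAAT boxes, which the DREAM and MuvB complexes and NF-Y read. Most capillary, alveolar and stromal cells of the lung divide briskly in the first weeks after birth and then become quiescent, so that few dividing cells remain in juvenile tissue.

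The promoters of 4 rule genes are printed because they show these elements side by side in genes that define the cells. Each run is 300 bases long, from 250 before to 50 after the start in RefSeq on GRCm38.p6, 5′ to 3′ on the gene's strand, which is the minus strand in all 4. Capitals mark TTTGAA (the CHR core), CCAAT, and the E2F words TTTCCCGC, TTTGGCGC and TTTCGCGC, on either strand, so that TTCAAA and ATTGG are their reverse complements. The runs are Ccnb2 at chr9:70421505-70421804, Cdk1 at chr10:69352863-69353162, Mki67 at chr7:135716330-135716629 and Top2a at chr11:99024140-99024439.
Ccnb2: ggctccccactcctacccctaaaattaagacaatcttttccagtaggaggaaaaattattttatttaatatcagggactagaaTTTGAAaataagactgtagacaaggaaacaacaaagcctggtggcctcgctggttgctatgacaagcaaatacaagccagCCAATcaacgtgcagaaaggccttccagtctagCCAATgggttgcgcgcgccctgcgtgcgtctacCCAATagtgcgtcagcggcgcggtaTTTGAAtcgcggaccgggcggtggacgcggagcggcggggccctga
Cdk1: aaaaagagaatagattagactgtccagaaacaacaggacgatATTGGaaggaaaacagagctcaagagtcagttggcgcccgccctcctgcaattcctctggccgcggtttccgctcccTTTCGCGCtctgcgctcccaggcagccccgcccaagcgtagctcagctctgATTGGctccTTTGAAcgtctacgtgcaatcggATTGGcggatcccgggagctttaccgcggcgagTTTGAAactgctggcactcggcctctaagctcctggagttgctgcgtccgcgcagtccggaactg
Mki67: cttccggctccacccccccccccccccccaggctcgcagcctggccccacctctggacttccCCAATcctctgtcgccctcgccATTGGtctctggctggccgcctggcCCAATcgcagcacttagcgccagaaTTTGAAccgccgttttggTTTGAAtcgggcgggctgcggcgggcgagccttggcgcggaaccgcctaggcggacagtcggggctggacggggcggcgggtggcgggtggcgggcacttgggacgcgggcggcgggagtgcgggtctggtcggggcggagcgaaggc
Top2a: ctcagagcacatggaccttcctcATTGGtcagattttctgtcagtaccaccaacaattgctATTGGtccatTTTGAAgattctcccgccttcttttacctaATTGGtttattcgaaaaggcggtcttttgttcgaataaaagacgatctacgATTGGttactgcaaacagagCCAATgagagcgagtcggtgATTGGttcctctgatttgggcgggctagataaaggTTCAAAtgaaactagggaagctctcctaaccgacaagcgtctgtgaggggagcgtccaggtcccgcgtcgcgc
The 4 promoters were picked because they hold TTTGAA and at least 2 CCAAT. Each of them held TTTGAA at 2 places, CCAAT was found 3 times in Ccnb2, Cdk1 and Mki67 and 6 times in Top2a, and Cdk1 also held 1 E2F word. Promoters of Nusap1 and Birc5 held none of these letters in the same window. Ccna2 and Tpx2 have no promoter in the RefSeq table and were not read. Over the 45 of 52 G2 and M genes used below that have a promoter in the RefSeq table, 73.3% held TTTGAA, against 20.2% of 27025 genes, and 40.0% held TTTGAA with at least 2 CCAAT, against 2.42%. Over 26 of 30 S-phase genes, 46.2% held an E2F word, against 2.12% of all genes, while 15.4% held TTTGAA. A match describes letters in this window and is not a measured binding site.

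The cells called cycling carried the 8 rule genes far above the rest of the same library. Mki67, the nuclear protein read by the Ki-67 antibody, stood at 913, 547, 739.9 and 442 CPM (UMIs of the gene per 1000000 UMIs) in cycling cells of the Bdnf control, Bdnf iPCKO, Hgf control and Hgf iPCKO libraries, against 0.854, 0.849, 0.405 and 0.616 CPM in the other cells. Top2a, the topoisomerase that untangles replicated DNA, stood at 1203, 654, 1018.5 and 534 CPM, against 1.62, 2.43, 0.842 and 2.27 CPM. In all 4 libraries the level in barcodes with 10 to 100 UMIs, which hold mostly free RNA, lay between 7.29 and 12.9 CPM for Mki67 and between 7.02 and 12 CPM for Top2a. A cycling cell carried between 5 and 493 UMIs of the 8 genes in the Bdnf control, with a median of 43, and the medians of the other libraries were 21, 29 and 22 UMIs in the same order.

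A second set of 8 proliferation genes that the rule did not use was read in the same cells. Cenpf, Ube2c, Hmmr, Aurkb, Kif11, Prc1, Cdca8 and Racgap1 act at kinetochores, in the spindle, in anaphase and in cytokinesis. At least 5 UMIs of this set were found in 77 of 107 cycling cells of the Bdnf control, 74 of 113 of the Bdnf iPCKO, 43 of 61 of the Hgf control and 80 of 111 of the Hgf iPCKO, which is 72.0%, 65.5%, 70.5% and 72.1%. Among the other cells 7, 5, 3 and 1 reached 5 UMIs. The label therefore holds for the bulk of the cells, but it is weak at the edge of the rule and for some cells well above it. Of the 12 cells with 8 rule-gene UMIs, 16.7% carried at least 3 UMIs of the second set. Cycling endothelial cells of the Hgf iPCKO with 29.0 and 22 rule-gene UMIs carried 0 UMIs of it. Of the 25 cells with exactly 5 rule-gene UMIs, 16.0% carried at least 3 UMIs of the second set, and so did 16.7% of the 18 cells with 6 UMIs, against 7.84% of the 51 cells with 4, 0.877% of the 114 cells with 3 and 97.4% of the 233 cells with 20 or more.

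**Figure D1:**
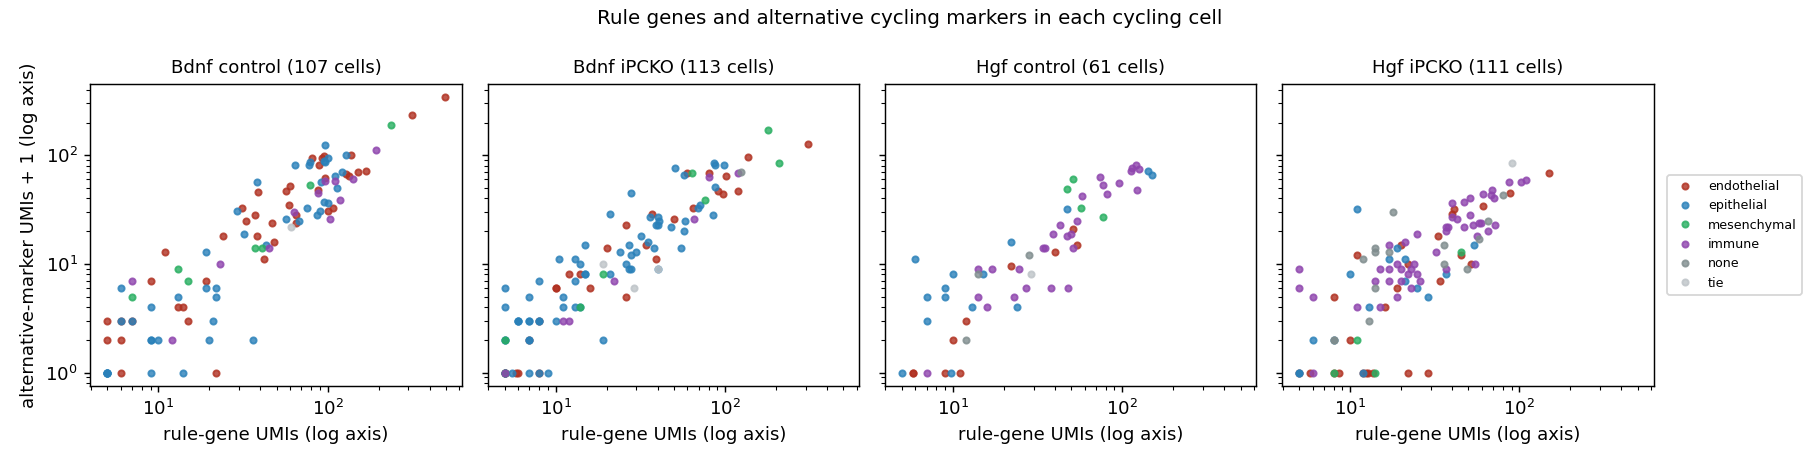
Each point is 1 cycling cell, with its UMIs of the 8 rule genes on the x axis and its UMIs of the 8 alternative cycling markers plus 1 on the y axis, both on log axes, in 1 panel per library, coloured by lineage. The 2 counts rise together, and cells with 5 or 6 rule-gene UMIs mostly sit at the bottom of the y axis.

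Cycling cells were rare in every lung library. Their share of kept cells was 0.639% (107 of 16749, 0.524 to 0.771%) in the Bdnf control, 0.475% (113 of 23765, 0.392 to 0.571%) in the Bdnf iPCKO, 0.433% (61 of 14095, 0.331 to 0.556%) in the Hgf control and 0.702% (111 of 15818, 0.578 to 0.844%) in the Hgf iPCKO. The same rule found 5.49% in the Nodal lox/lox control and 7.48% in the Nodal iPCKO, the 2 cortex libraries of the series, taken at postnatal day 12. Cycling cells also carried more UMIs than the rest, with medians of 15116, 13106, 11945 and 14245 UMIs against 7172, 5065, 3981.5 and 2850 in the other cells. When every cell was thinned to 1500 UMIs in the Bdnf libraries or 700 in the Hgf libraries and 2 rule-gene UMIs were asked for, the shares became 0.561%, 0.475%, 0.298% and 0.411%. The kept cells held 138832672, 150358016, 62484808 and 57819900 UMIs. Of the 392 barcodes 20 were also kept in another lung library and 0 were cycling in both.

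Targeted genes were read in all kept cells as a check of the labels. Hgf stood at 9.20 CPM in the Hgf control and at 2.73 CPM in the Hgf iPCKO library. Bdnf stood at 30.1 CPM in the Bdnf control and at 27.9 CPM in the Bdnf iPCKO library, so that the level over all kept cells does not check the Bdnf labels. In cycling cells Bdnf had 4, 6, 5 and 2 UMIs and Hgf had 10, 17, 13 and 5 UMIs in the order given above.

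Immune cells stood apart from the other lineages in their cycling share. Endothelial cells were cycling at 0.856% (42 of 4904) in the Bdnf control, 0.400% (28 of 6994) in the Bdnf iPCKO, 0.181% (10 of 5518) in the Hgf control and 0.340% (26 of 7653) in the Hgf iPCKO. Epithelial cells were cycling at 0.547% (45 of 8233), 0.602% (66 of 10965), 0.214% (15 of 7010) and 0.270% (16 of 5924). Mesenchymal cells were cycling at 0.221% (7 of 3166), 0.165% (8 of 4847), 0.395% (4 of 1013) and 0.308% (4 of 1300), counts too small to order. The few immune cells that passed the CD45 depletion were cycling at 22.2% (12 of 54), 21.2% (7 of 33), 31.8% (28 of 88) and 54.4% (49 of 90). These levels depended on how the lineage was assigned. Another assignment used lineage lists of 6 genes each and divided each list by its mean over the kept cells of the library. With it the immune shares were 6.29% (21 of 334), 7.55% (24 of 318), 14.7% (38 of 258) and 31.9% (79 of 248). The endothelial shares became 0.851%, 0.353%, 0.108% and 0.127%. Markers and scaling changed together here, and their parts were not separated. With the shorter sets even the lowest bound for immune cells, 8.98% in the Bdnf iPCKO, lay above the highest bound for any other lineage, 1.16% for endothelial cells of the Bdnf control. A further 0, 1, 3 and 15 cycling cells carried no UMI of any lineage marker, and 1, 3, 1 and 1 were tied.

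**Figure D2:**
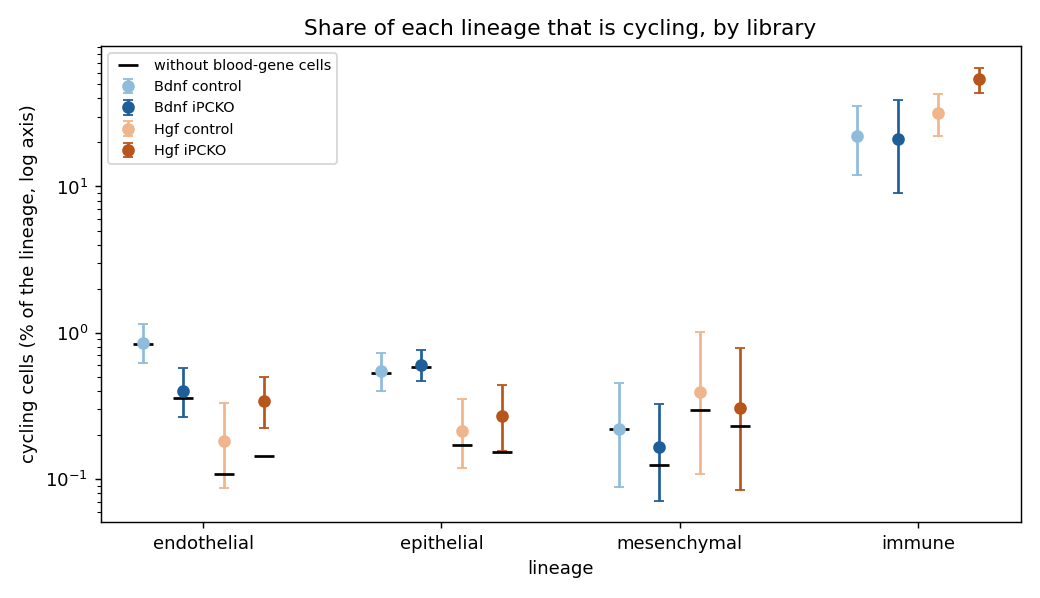
Share of each lineage that was cycling, in percent on a log axis, for the 4 lung libraries, with points for the share and bars for the exact 95% binomial interval. Black dashes give the share after cells with at least 10 UMIs of the blood list are left out, shown for the 3 lineages outside the immune one. Immune cells lie between 21.2% and 54.4% and the other lineages below 1%.

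Between genotypes, 4 of 10 share ratios had an interval without 0. On the log2 scale the Bdnf iPCKO over Bdnf control ratio was -1.10 (-1.79 to -0.41) in endothelial cells, 0.14 (-0.41 to 0.68) in epithelial cells, -0.42 (-1.88 to 1.04) in mesenchymal cells and -0.07 (-1.26 to 1.12) in immune cells, and it was -0.43 (-0.81 to -0.05) over all cells. The lower endothelial share in the Bdnf iPCKO library kept its interval below 0 under 8 of 11 other ways of counting, with ratios of -1.05 to -1.27, and not under the other 3. The 8 include a common UMI limit for all lung libraries, which the Bdnf pair already used and which could not change its ratio. With at least 3 rule-gene UMIs both libraries had 59 cycling endothelial cells and the ratio was -0.51 (-1.03 to 0.0058), thinned to a common depth both had 41 cells and it was -0.51 (-1.13 to 0.11), and without cells that Scrublet called doublets 26 and 27 cells were left and it was -0.56 (-1.33 to 0.22). Scrublet, a caller that compares each cell with simulated pairs, marked 15 of the 42 cycling endothelial cells of the Bdnf control and 2 of the 28 of the Bdnf iPCKO, against 9.93% and 10.8% of the other endothelial cells. The ratio over all cells, too, included 0 under these 3 choices, with -0.10 (-0.40 to 0.20), -0.24 (-0.63 to 0.15) and -0.07 (-0.50 to 0.37), and at -0.41 (-0.84 to 0.015) without cells that carried 3 or more UMIs of the blood list described below.

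In the Hgf pair the iPCKO over control ratio was 0.70 (0.25 to 1.15) over all cells and 0.77 (0.26 to 1.29) in immune cells, and the intervals of the other lineages included 0, with 0.91 (-0.14 to 1.96) in endothelial, 0.34 (-0.68 to 1.35) in epithelial and -0.36 (-2.36 to 1.64) in mesenchymal cells. Thinned to 700 UMIs these became 0.46 (-0.10 to 1.02) over all cells and 0.29 (-0.45 to 1.02) in immune cells. Without cells that carried blood genes the ratio over all cells was 0.066 (-0.74 to 0.87), from 27 of 15695 against 23 of 14000 cells. The 2 control libraries, neither of which carries the transgene, differed from each other too. The Hgf control over Bdnf control ratio was -2.24 (-3.23 to -1.25) in endothelial and -1.35 (-2.19 to -0.51) in epithelial cells, and remained -1.85 (-2.85 to -0.86) and -1.43 (-2.29 to -0.56) with 1500 UMIs asked of every cell. This limit does not equalise depth, as the median of kept cells was 3988 UMIs in the Hgf control and 7191 in the Bdnf control. Thinning went to 700 UMIs in the Hgf libraries and 1500 in the Bdnf libraries. The 2 controls were thus not compared at a common depth. Over all cells their ratio was -0.56 (-1.01 to -0.11), and its interval included 0 with 1500 UMIs (-0.44, -0.90 to 0.015) and without doublets (-0.20, -0.69 to 0.29), but it was -1.75 (-2.41 to -1.09) without blood-gene cells. Scrublet marked 33 of the 107 cycling cells of the Bdnf control and 0 of the 61 of the Hgf control. Its threshold was 0.182 in the first and 0.409 in the second, which marked 13.6% and 2.67% of all kept cells. The ratio without doublets thus compares 2 libraries filtered unequally.

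Many cycling cells carried genes of blood cells or their precursors. A list of 17 blood genes, chosen after values had been seen, holds pan-leukocyte genes such as Coro1a, Cd53 and Spi1, the granule genes Mpo, Elane, Prtn3 and Ctsg of granulocyte-monocyte precursors, and the red-cell genes Gata1, Klf1, Rhag and Slc4a1. At least 10 UMIs of it were found in 12 of 12, 6 of 7, 26 of 28 and 47 of 49 cycling immune cells, against 88.1%, 69.2%, 73.3% and 61.0% of other immune cells. They were also found in cycling cells that the lineage markers placed elsewhere, in 1 of 42, 3 of 28, 4 of 10 and 15 of 26 cycling endothelial cells and in 1 of 45, 2 of 66, 3 of 15 and 7 of 16 cycling epithelial cells, most of them in the Hgf libraries. Among other endothelial cells the share was 0.103%, 0.0861%, 0.0726% and 0.105%, and among other epithelial cells it was at most 0.0677%. Other immune cells had median UMIs of 5076, 3690.5, 3011 and 2851, against 24082, 13106, 12929 and 16512 in cycling ones. The immune difference in the list was not separated from this depth. All 3 cycling cells without a lineage marker in the Hgf control and 13 of 15 in the Hgf iPCKO carried the list, and each of those 13 had at least 3 UMIs of red-cell precursor genes. Leaving these cells out, cycling endothelial cells numbered 41, 25, 6 and 11, or 0.837%, 0.358%, 0.109% and 0.144% of endothelial cells. None of the 6 and 11 in the Hgf libraries carried more than 2 UMIs of the second set of proliferation genes. Together the 6 held 12 S-phase and 68 G2 and M UMIs, and the 11 held 21 and 48. Their label thus rests mostly on the rule genes.

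**Figure D3:**
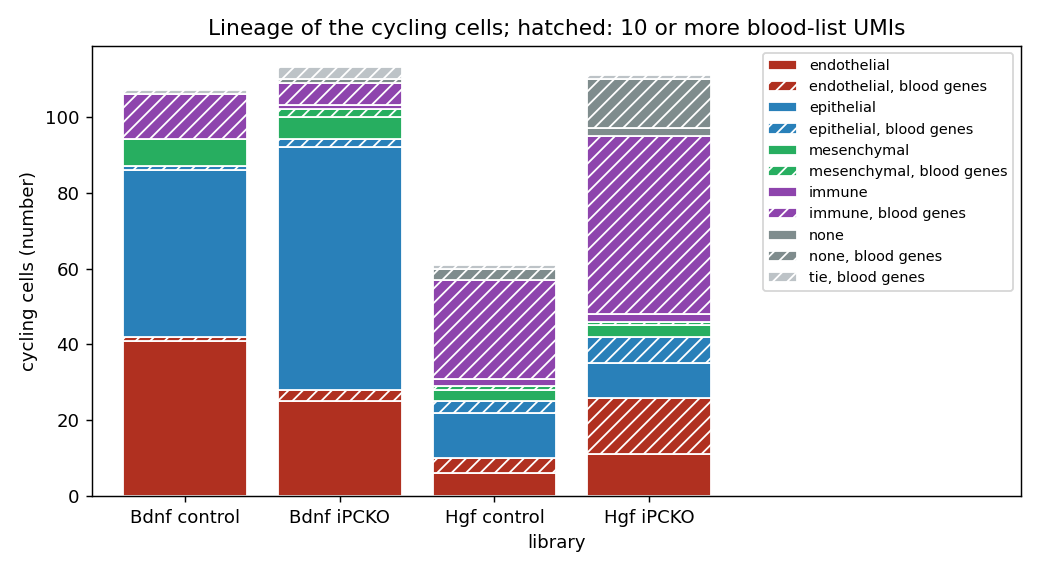
Number of cycling cells in each lung library as stacked bars, coloured by lineage, with hatched segments for cells with at least 10 UMIs of the blood list. The Bdnf bars are mostly unhatched endothelial and epithelial cells, and the hatched segments make up the larger part of both Hgf bars.

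Cycling endothelial cells held mixtures of vessel types. Lists of markers for general capillary cells (gCap, such as Gpihbp1 and Plvap), aerocytes (aCap, such as Car4 and Ednrb), arteries, veins and lymphatics were summed in each cell and are given as UMIs per 10000. The values include the blood-gene cells, which were 4 of 10 and 15 of 26 of these cells in the Hgf libraries. The gCap list had a median of 62.4, 41.8, 31.0 and 8.37 in cycling endothelial cells, against 88.7, 73.0, 75.9 and 62.5 in other endothelial cells. The aCap list had a median of 4.38, 13.4, 3.32 and 6.33, against 5.77, 8.26, 9.40 and 11. The venous list had a median of 6.21 in the Bdnf control, against 1.74 in its other endothelial cells, and of 2.07 against 1.89 in the Bdnf iPCKO, where the venous sum over cells was lower, at 395 against 1341 CPM. Lymphatic genes were concentrated in a few cells, with highest values of 399 and 232 in the Bdnf libraries, where Ccl21a, the lymphatic chemokine, came from 3 and 2 cycling cells, and no cell above 3.97 and 12.3 in the Hgf libraries.

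Summed over cells, the aerocyte (aCap) list stood at 618, 1168, 800.3 and 656 CPM in cycling endothelial cells against 1949, 2202, 3700.1 and 3069 CPM in others, so that the sum was lower in the Bdnf iPCKO as well, where the median per cell was higher. Kdr, the VEGF receptor high in aerocytes, stood at 414, 718, 452 and 276 CPM in cycling cells against 873, 1081, 1393 and 1292 CPM in others. Car4, an aerocyte marker, stood at 64.5, 109, 244 and 162 CPM against 446, 449, 1119 and 699 CPM. Both levels were below those of other endothelial cells in all 4 libraries. They include the blood-gene cells, and the part of these in the lower levels was not tested. Ntrk2, the receptor for BDNF, had 2, 0, 0 and 0 UMIs in cycling endothelial cells and 22.3, 24.7, 29.8 and 8.38 CPM in the others. In the Bdnf control this was a log2 ratio of -2.64 (-5.68 to -0.78), and in the Bdnf iPCKO the 0 UMIs had an upper bound of 9.33 CPM, below the 24.7 CPM of the others. In the Hgf libraries the upper bounds of 42.8 and 11.7 CPM lay above the others, so a difference was not detectable at this depth.

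Cycling epithelial cells carried alveolar or airway genes in proportions that differed between the libraries. The alveolar type 2 (AT2) list, led by surfactant genes such as Sftpc, had a median of 619.5, 495 and 43.7 UMIs per 10000 in cycling epithelial cells of the Bdnf control, Bdnf iPCKO and Hgf control, and of 2.98 in the Hgf iPCKO, against 976, 862, 1062 and 710.0 in other epithelial cells. The club cell list, led by the secretory gene Scgb1a1, had a median of 4.74, 6.60, 503 and 48.0, against 4.55, 7.54, 3.85 and 8.33. Of epithelial cells with at least 1% of their UMIs in the AT2 list, 33 of 7033 (0.469%), 48 of 8803 (0.545%), 6 of 6166 (0.0973%) and 3 of 4631 (0.0648%) were cycling. Of those below 1%, 12 of 1200 (1.0%), 18 of 2162 (0.833%), 9 of 844 (1.07%) and 13 of 1293 (1.0%) were. In the lower range 0, 0, 2 and 6 of these cycling cells carried at least 10 UMIs of the blood list described above, which leaves 12, 18, 7 and 7. The AT2 range also held at least 1 such cell in each library, and its counts above include them. The AT2 range differed between the Bdnf and Hgf libraries, with intervals of 0.323 to 0.658% and 0.402 to 0.722% against 0.0357 to 0.212% and 0.0134 to 0.189%. The limit of 1% was set after values had been seen, and 285, 434, 207 and 173 epithelial cells lay between 0.5 and 2%.

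Club, ciliated and basal transcripts were also found in cycling epithelial cells. With at least 1% of UMIs in the club list, 9 of 506, 23 of 1028, 10 of 446 and 5 of 848 cells were cycling, or 1.78%, 2.24%, 2.24% and 0.590%, and 1, 7, 3 and 1 of these cycling cells were in the AT2 range as well. Cells with at least 3 UMIs of Deup1, Ccno, Mcidas and Cdc20b, which drive the multiplication of centrioles in cells that are about to grow cilia, were few, and 5 of 36, 7 of 47, 4 of 17 and 4 of 24 of them met the cycling rule (13.9%, 14.9%, 23.5% and 16.7%). Such cells are known to switch on cell-cycle genes without dividing, and 40, 59, 11 and 12 cycling epithelial cells remained without them. Foxj1, the ciliated-cell transcription factor, stood at 120.4, 155, 532 and 325 CPM in cycling epithelial cells against 36.4, 56.9, 55.0 and 117 CPM in others. Krt5 and Krt15, keratins of basal cells, came from 1 and 3 cycling cells of the Bdnf control with 22 and 78 UMIs.

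**Figure D4:**
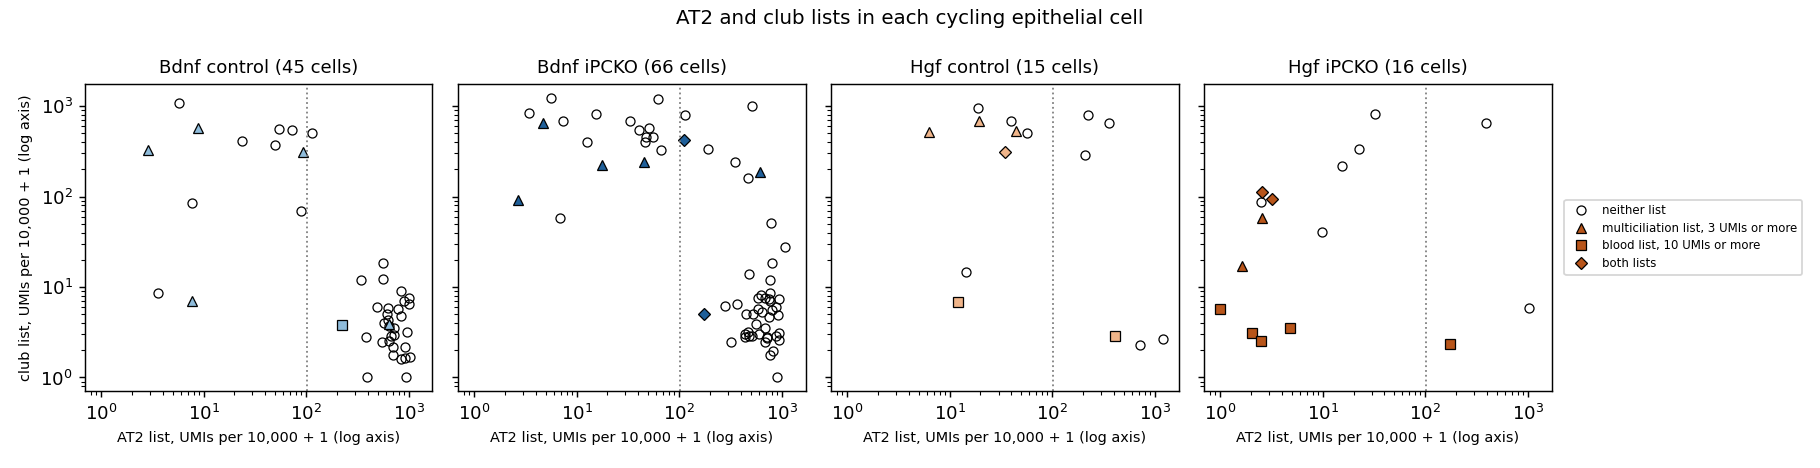
Each point is 1 cycling epithelial cell, with its AT2-list UMIs per 10000 plus 1 on the x axis and its club-list UMIs per 10000 plus 1 on the y axis, both on log axes, in 1 panel per library. The dotted line marks 1% of the cell's UMIs, and filled triangles, squares and diamonds mark cells over the multiciliation limit, the blood limit or both. In the Bdnf panels most cells lie to the right of the line (33 of 45 and 48 of 66), and in the Hgf panels most lie to the left of it.

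Cycling mesenchymal cells were too few for comparisons between genotypes. Among the 7 cells of the Bdnf control the adventitial fibroblast list had a median of 16.9 UMIs per 10000 against 5.35 in other mesenchymal cells, and the myofibroblast list had 1.35 against 15.9. In the Bdnf iPCKO the same lists had 9.43 against 4.49 and 1.01 against 21.9. Upk3b, a gene of the mesothelial lining, had 49, 27, 8 and 0 UMIs in 2, 1, 1 and 0 cycling cells. Higd1b, a pericyte gene, had 0 UMIs in the cycling mesenchymal cells of all 4 libraries, against 6.85, 5.21, 16.5 and 39.2 CPM in other mesenchymal cells. At least 2 UMIs of the whole pericyte list were found in 1 of 7, 2 of 8, 0 of 4 and 0 of 4 cycling mesenchymal cells, against 23.3%, 19.8%, 24.5% and 24% of the others, too few cells to say whether dividing pericytes were among them.

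Cycling immune cells carried genes of early blood cells. Mpo, the peroxidase of granulocyte-monocyte precursors, had 666, 708, 545 and 2927 UMIs from 5, 4, 9 and 34 cycling immune cells, and Elane, neutrophil elastase, had 298, 196, 401 and 1563 UMIs from 2, 2, 8 and 31 cells. Cells with at least 3 UMIs of granulocyte-monocyte precursor genes numbered 5 of 12, 4 of 7, 11 of 28 and 36 of 49, and those with at least 3 UMIs of red-cell precursor genes 5, 2, 3 and 5. C1qa, a gene of interstitial macrophages, had 0 UMIs in all 4 libraries, and Cd3e of T cells had 1, 0, 0 and 2. The lists around these genes were present, since at least 2 UMIs of the interstitial macrophage and monocyte list were found in 6 of 12, 2 of 7, 12 of 28 and 38 of 49 cycling immune cells, or 50.0%, 28.6%, 42.9% and 77.6%, against 61.9%, 38.5%, 38.3% and 36.6% of other immune cells. For the T and NK list the cycling cells numbered 4, 3, 13 and 15, or 33.3%, 42.9%, 46.4% and 30.6%, against 45.2%, 42.3%, 31.7% and 39.0%. The B list was found in 7, 1, 15 and 11 cycling cells, or 58.3%, 14.3%, 53.6% and 22.4%, against 2.38%, 3.85%, 18.3% and 12.2%, and the neutrophil list in 2, 2, 10 and 19, or 16.7%, 28.6%, 35.7% and 38.8%, against 11.9%, 11.5%, 1.67% and 14.6%. Chil3, a gene of alveolar macrophages and neutrophil precursors, stood at 149, 31.6, 1961 and 1009 CPM in cycling against 735, 1244, 4256 and 3795 CPM in other immune cells.

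Sorting the cell-cycle genes by step showed how complete the programme was in these cells. A gene was called past the fold when its level in cycling over other cells was at least 2-fold and its interval excluded 0, with at least 20 UMIs over both. Because the rule used the same contrast, these counts only describe the cells. Over all lineages 8.18%, 9.32%, 13.2% and 17.0% of genes were past the fold upward and 5.55%, 6.46%, 11.4% and 17.0% downward. All 11 replication licensing genes and all 19 genes of the replication fork and nucleotide supply were higher in every library, with median log2 ratios of 3.77, 3.62, 4.90 and 4.79 for licensing and 3.30, 3.04, 3.45 and 3.63 for the fork. Mcm5, a subunit of the helicase that opens DNA, stood at 148, 155, 229 and 279.7 CPM against 5.91, 4.64, 3.89 and 3.06 CPM. Pcna, the sliding clamp of DNA polymerase, stood at 524, 557.5, 616 and 526 CPM against 108, 126, 91.0 and 104 CPM.

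Mitotic kinases and cyclins, kinetochore, spindle and cytokinesis genes had larger median ratios than both S-phase lists in all 4 libraries, while the condensin and anaphase lists did not in every library. All members of the lists for mitotic kinases and cyclins, kinetochores, spindle, condensin, the anaphase-promoting complex and cytokinesis were higher in all 4 libraries. Median log2 ratios were 6.48, 5.39, 6.68 and 5.44 for the 11 kinases and cyclins, 7.51, 6.62, 7.52 and 5.74 for the 10 kinetochore genes, 7.24, 5.74, 7.43 and 6.17 for the 13 spindle genes and 6.15, 5.24, 5.75 and 5.28 for the 5 cytokinesis genes. Cenpf, which binds kinetochores in late G2, stood at 421, 194.5, 188 and 102 CPM, against 1.35, 1.44, 1.0 and 2.40 CPM. Condensin and mitotic chromatin genes, which include the abundant Hmgb2, had smaller ratios of 4.26, 3.27, 4.94 and 3.61, and the 6 genes of the anaphase-promoting complex and its brakes had 4.78, 3.90, 4.77 and 4.44.

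Within single lineages the same steps stood out wherever at least 20 cycling cells were present. All 11 licensing and all 10 kinetochore genes were higher in endothelial cells of the Bdnf control, Bdnf iPCKO and Hgf iPCKO and in epithelial cells of the Bdnf control and Bdnf iPCKO. Background shares there were 6.39%, 9.73% and 13.6% of genes higher and 4.51%, 5.69% and 12.3% lower in endothelial cells, and 7.17% and 8.31% higher and 2.79% and 3.38% lower in epithelial cells. In the Hgf iPCKO, 15 of the 26 cycling endothelial cells carried the blood list. S-phase and G2 and M genes had 1391 and 2300 UMIs with these cells and 21 and 48 without them. The endothelial result of this library thus came mostly from blood-gene cells. In immune cells of the Hgf control and Hgf iPCKO, where 18.2% and 13.0% of genes were higher and 14.1% and 12.1% lower, 10 and 9 of 11 licensing genes and all 10 kinetochore genes were higher.

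Genes of the entry into the cycle were mixed. Of 11 D-type cyclins, CDK4 and CDK6 and G1/S regulators, 7, 8, 9 and 8 were higher and 0, 0, 0 and 1 lower. Ccne1, the cyclin that starts S phase, stood at 21.5, 29.9, 44.6 and 69.1 CPM against 0.642, 1.12, 0.594 and 0.575 CPM. Cdk6, a kinase prominent in blood precursors, had log2 ratios of 1.82, 1.02, 3.11 and 3.82. Ccnd1 went in different directions, with 0.71 and 1.29 in the Bdnf libraries and -0.66 and -1.73 in the Hgf libraries, where blood cells made up more of the cycling cells. Ccnd2 stayed near 0 in 3 libraries (-0.14, -0.12 and 0.01) and was 0.96 in the Hgf iPCKO.

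Brakes on the cycle did not move as 1 group, with 3, 2, 4 and 1 members higher and 1, 2, 1 and 4 lower. The CDK4 and CDK6 inhibitors Cdkn2c (p18) and Cdkn2d (p19) stood above the other cells in all 4 libraries, with log2 ratios of 4.20, 3.40, 2.98 and 1.19 for Cdkn2c and 2.72, 1.28, 2.38 and 0.95 for Cdkn2d. Btg2, an antiproliferative gene, stood at -0.83, -1.14, -0.83 and -1.67. Cdkn1a (p21) was 0.40, -0.37, -0.32 and -1.47. None of 14 growth factor receptors was higher past the fold over all lineages. Lower were 6, 6, 12 and 11, against 5.55%, 6.46%, 11.4% and 17.0% of all genes. That contrast mixes lineages, as 45.9% and 44.1% of cycling cells in the Hgf libraries were immune. Within endothelial cells of the Bdnf control, Bdnf iPCKO and Hgf iPCKO 0, 2 and 0 were higher and 5, 8 and 7 lower. Within epithelial cells of the Bdnf libraries 0 were higher and 2 and 5 lower. Within immune cells of the Hgf libraries 0 were higher, and 1 of 4 and 2 of 7 tested were lower. Met, the receptor for HGF, stood at 103, 65.1, 32.7 and 12.5 CPM in cycling epithelial cells and at 187, 133, 151 and 79.8 CPM in the others. With the blood-gene cells included, the cycling level was lower in all 4 libraries.

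The balance of S against G2 and M differed by library and lineage. Of the UMIs that cycling cells carried in the 30 S and 52 G2 and M genes, 20.7% (20.2 to 21.2%), 30.1% (29.4 to 30.7%), 27.4% (26.6 to 28.3%) and 35.1% were S-phase UMIs. Per cell the median share was 20.5%, 34.0%, 22.4% and 31.4%. Among cycling endothelial cells the share was 14.7% in the Bdnf control and 25.8% in the Bdnf iPCKO, and it was 14.5% and 19.7% without blood-gene cells. Endothelial cells with more S than G2 and M UMIs did not show this difference, at 5 of 42 (11.9%) and 3 of 28 (10.7%). Among cycling epithelial cells it was 21.8% in the Bdnf control and 31.8% in the Bdnf iPCKO, and 21% and 31.7% without blood-gene cells. Cells with more S than G2 and M UMIs numbered 13 of 45 and 25 of 66 in this lineage. In immune cells the share was 31.4%, 28.6%, 27.3% and 34.1%. Without blood-gene cells the 4 libraries stood at 17.5%, 27.5%, 22.0% and 21.1%, so the highest share was then that of the Bdnf iPCKO and no longer that of the Hgf iPCKO.

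Outside the marker and cell-cycle lists, though not outside the blood list chosen later, the genes that led each lineage by the smallest of their 4 log2 ratios were mostly further parts of the same machinery. The ranking includes the blood-gene cells. In the Hgf control and Hgf iPCKO these were 4 of 10 and 15 of 26 cycling endothelial cells and 3 of 15 and 7 of 16 cycling epithelial cells. Their part in the ranking was not tested. Esco2, which ties sister chromatids together in S phase, led the endothelial genes with 79, 34, 8 and 14 UMIs in cycling cells and the epithelial genes with 58, 57, 11 and 6 UMIs. Cep55, which acts in the last cut between daughter cells, and Cenpm, a centromere protein, were among the 10 leading genes of both lineages. Other leading endothelial genes were the repair glycosylase gene Neil3, Troap, Depdc1a, Cdca3, Melk and the linker histone gene H1f5. Other leading epithelial genes were Kif18b, the cohesin protector Sgo1, Mxd3, the PCNA partner Pclaf, Parpbp, Cdca5 and Spn, which encodes the leukocyte sialophorin CD43 and came from 1, 3, 3 and 4 cells.

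In some places this ranking was set by the floor of 3 UMIs, which stands in for 0 UMIs and gives a high ratio where the gene was absent from the cycling cells. Iglc3, an immunoglobulin light chain gene, was placed among the endothelial 10 in this way, with 0 UMIs in 3 libraries and all of its 1034 UMIs from 2 cells of the Hgf iPCKO. In mesenchymal cells Cldn13 and Slc4a1, genes of the red-cell line, had 0 UMIs in the Bdnf control and came from at most 2 cells of any library, and Pbk and Melk had 0 UMIs in the Hgf iPCKO, so none of these 4 is a leading gene of all 4 libraries. Pclaf, Aspm, Cdca3 and Esco2 had UMIs in all 4. In immune cells the granule genes Elane, Prtn3, Mpo and Fcnb, and Ms4a3 of granulocyte-monocyte precursors, ranked beside Pclaf, Sgo2a, Ppih and H2ax.

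Genotypes were compared gene by gene only where both libraries had at least 20 cycling cells of a lineage. In cycling endothelial cells, 28 of the Bdnf iPCKO against 42 of the Bdnf control, 536 of 7417 genes (7.23%) were higher in the iPCKO library and 555 (7.48%) lower, past the fold in the sense above. In 693 of these 1091 genes no cell gave over 20% of the UMIs, of which 435 were lower. Vwf, the clotting factor of large-vessel endothelium, had 12 UMIs from 3 cells in the iPCKO library and 369 from 20 cells in the control, a log2 ratio of -4.45 (-5.41 to -3.62), against -0.34 in the other endothelial cells. Its level in cycling cells of the control, 661 CPM, was near the 687 CPM of that library's other endothelial cells, while the iPCKO library had 30.3 CPM against 542.

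Most endothelial lists were lower in cycling cells of the Bdnf iPCKO, veins and arteries by the most. The 3 endothelial lineage markers, which sorted the cells and so only describe them, had a log2 ratio of -0.72 (-0.85 to -0.59), against -0.15 in other endothelial cells. The 6 genes of the longer endothelial list had -1.11 (-1.19 to -1.02) with 3 lower past the fold, gCap genes -1.03 (-1.13 to -0.93) with 2 of 6 lower, and lymphatic genes -1.31 (-1.45 to -1.17) with 1 of 5 lower. In other endothelial cells these lists stood at -0.26, -0.18 and -0.92. Venous genes together had a log2 ratio of -2.24 (-2.50 to -2.0), with 3 of 5 members lower, and -0.25 in other endothelial cells. Slc6a2, a noradrenaline transporter of pulmonary veins, had 3 UMIs from 1 cell against 95 from 10 (-4.49, -6.79 to -2.90), and Prss23 had 66 against 410 (-2.14). Arterial genes together had -1.69 (-2.01 to -1.39), with 4 of 6 lower, among them Gja5, the connexin of arteries, with 0 UMIs against 43 from 3 cells, and Fbln5, an elastic-fibre protein, with 39 against 264 (-2.26). Plac8 had 1 UMI against 104 from 15 cells (-6.20, -11.52 to -3.69), and the neuronal tubulin regulator Stmn2 had 2 against 73 from 18 cells (-4.69). The adhesion receptor Vcam1 had 0 UMIs against 66 from 9 cells and Nuak1, a kinase, 0 against 46 from 10 cells, which makes both at least 3.44 lower on the log2 scale against a floor of 3 UMIs in the iPCKO library. Lyz1 was also among the 8 leading lower genes, but 95.5% of its UMIs were in 1 cell, and without doublets its ratio was 2.03.

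Capillary genes split in cycling endothelial cells. Plvap, the diaphragm protein of gCap and venous endothelium, had 139 UMIs against 561 (-1.52, -1.79 to -1.25), and Calcrl, the adrenomedullin receptor, had 135 against 825 (-2.12). Aerocyte genes together were higher in the iPCKO library at 0.92 (0.71 to 1.12), against 0.18 in other cells, with 2 of 6 members past the fold, Ednrb, an endothelin receptor, at 1.39 and Apln, the apelin ligand, at 1.03. Without blood-gene cells the venous list stood at -1.89, the arterial list at -1.33 and the aerocyte list at 1.28, and without doublets at -2.68, -1.66 and 0.72. Without blood-gene cells the other endothelial lists moved closer to the ratios of other endothelial cells, with the lineage markers at -0.35, the longer list at -0.72, gCap genes at -0.66 and lymphatic genes at -0.95.

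The leading higher genes of cycling endothelial cells in the Bdnf iPCKO were red-cell genes from very few cells. Car1, the carbonic anhydrase of red-cell precursors, had 392 UMIs from 3 cells against 0, and Rhag, Ermap and Tspan33 had 111, 44 and 39 UMIs from 3 cells against 0. Hba-a1 and Hbb-bs, the globins, had 356 and 145 UMIs against 2 and 1, with 97.7% and 99.3% in 1 cell. Without the blood-gene cells Car1, Rhag, Ermap and Tspan33 had 0 UMIs in both libraries. AU040972, with 78 UMIs against 1, had 97.5% of them in 1 cell.

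Cell-cycle steps were also unequal between these endothelial cells, and part of that moved with the blood-gene cells. The 8 rule genes, which chose the cells, stood at -0.63 (-0.73 to -0.54), and at -0.88 without blood-gene cells. The cell-cycle lists were thus read in cells whose rule-gene level also differed, and the part of this choice was not tested. Cytokinesis genes had a log2 ratio of -1.26 (-1.46 to -1.07), with 5 of 5 lower past the fold, Anln at -1.55, Ect2 at -1.52, Racgap1 at -1.23, Prc1 at -1.13 and Cit at -1.07, and the list stood at -1.27 without blood-gene cells and -1.28 without doublets. Kinetochore genes had -0.78 with 4 of 10 lower and spindle genes -0.88 with 5 of 13 lower. Replication licensing genes had 0.60 (0.39 to 0.81) and fork genes 0.24 (0.11 to 0.36), but -0.46 and -0.36 without the 3 and 1 blood-gene cells. Cdkn2c had 25 UMIs against 128 (-1.86) and Cdkn2d 17 against 63 (-1.39). Markers of other cells that these cells could hold were also read. The mesenchymal lineage markers stood at 2.07 (1.58 to 2.58) and the 3 epithelial lineage markers at -0.25 (-0.69 to 0.18). Both sets sorted the cells, so these values only describe them. Other epithelial lists differed, with AT2 genes at -0.25 (-0.35 to -0.15), club genes at 1.07 (0.96 to 1.18), ciliated genes at 0.90 (0.45 to 1.35) and AT1 genes at 0.80 (0.63 to 0.97). The club list was concentrated in 1 cell of each library. Its highest values were 499 UMIs per 10000 in the iPCKO and 296 in the control, and the next were 89.9 and 53.0. In other endothelial cells AT2 genes stood at 0.59, club genes at 0.87, ciliated genes at 0.16 and AT1 genes at 0.39, and without doublets the club list of the cycling cells stood at 3.82. The part of such RNA in the differences above was not tested.

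In cycling epithelial cells, 66 of the Bdnf iPCKO against 45 of the Bdnf control, 471 of 9832 genes (4.79%) were higher in the iPCKO library and 302 (3.07%) lower. Genes of mitosis were lower as lists while genes of S phase were not. The cells were chosen by the rule genes, whose level differed between the libraries too. Over all lineages a cycling cell had a median of 21 rule-gene UMIs in the Bdnf iPCKO and 43 in the Bdnf control. The part of this choice in the mitotic values was not tested. Kinetochore genes had a log2 ratio of -0.91 (-1.03 to -0.78) with 4 of 10 lower, spindle genes -0.87 (-1.0 to -0.74) with 5 of 13 lower, and mitotic kinases and cyclins -0.83 (-0.97 to -0.68) with 3 of 11 lower. Genes of the anaphase-promoting complex and its brakes had -0.88, cytokinesis genes -0.83 and condensin genes -0.51. Replication licensing stood at -0.10 (-0.26 to 0.07) and the fork at 0.04 (-0.06 to 0.14). The lists kept these directions without blood-gene cells, at -0.95, -0.97 and -0.90 for the first 3.

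The mitotic genes that were past the fold in cycling epithelial cells came from many cells each. Cenpe, the kinetochore motor, had 85 UMIs from 25 cells in the iPCKO library and 176 from 26 cells in the control (-1.63, -2.02 to -1.24). Cenpf had 154 UMIs against 296 (-1.52) and Ckap2, a spindle protein, 68 against 145 (-1.67). Rrm2, the ribonucleotide reductase subunit made in S phase, went the other way with 163 against 53 UMIs (1.05, 0.59 to 1.52), as did Cdkn1c (p57), a CDK inhibitor, with 236 against 54 (1.55, 1.12 to 2.01).

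Secretory genes of the airway went in both directions in the same comparison of cycling epithelial cells. Tff2, a mucosal trefoil peptide, had 361 UMIs from 11 cells against 6 from 2 (5.34, 4.20 to 6.79), and Clca1, a secreted gene of goblet cells, 671 from 9 cells against 18 from 2 (4.64, 3.97 to 5.41). Their ratios in other epithelial cells were 1.03 and 0.53. Club genes together stood at 0.82 (0.79 to 0.85), but at 0.98 in other epithelial cells, so the difference was no larger in cycling cells. Basal genes stood at -2.75 (-3.47 to -2.09), from few cells: Krt15 had 13 UMIs from 4 cells against 78 from 3, and Krt4, a suprabasal keratin outside that list, 0 against 39 from 2. Bpifa1 and Ltf, antimicrobial genes of the upper airway, had 707 against 1894 and 129 against 544 UMIs, from 5 against 3 and 9 against 2 cells. S100a8, S100a9, Ngp, Cybb, Fcnb and Chil3 led the higher genes and Ctsg and Mpo the lower ones, each with at least 74.7% of its UMIs in 1 cell, and the blood-gene cells held nearly all of them.

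**Figure D5:**
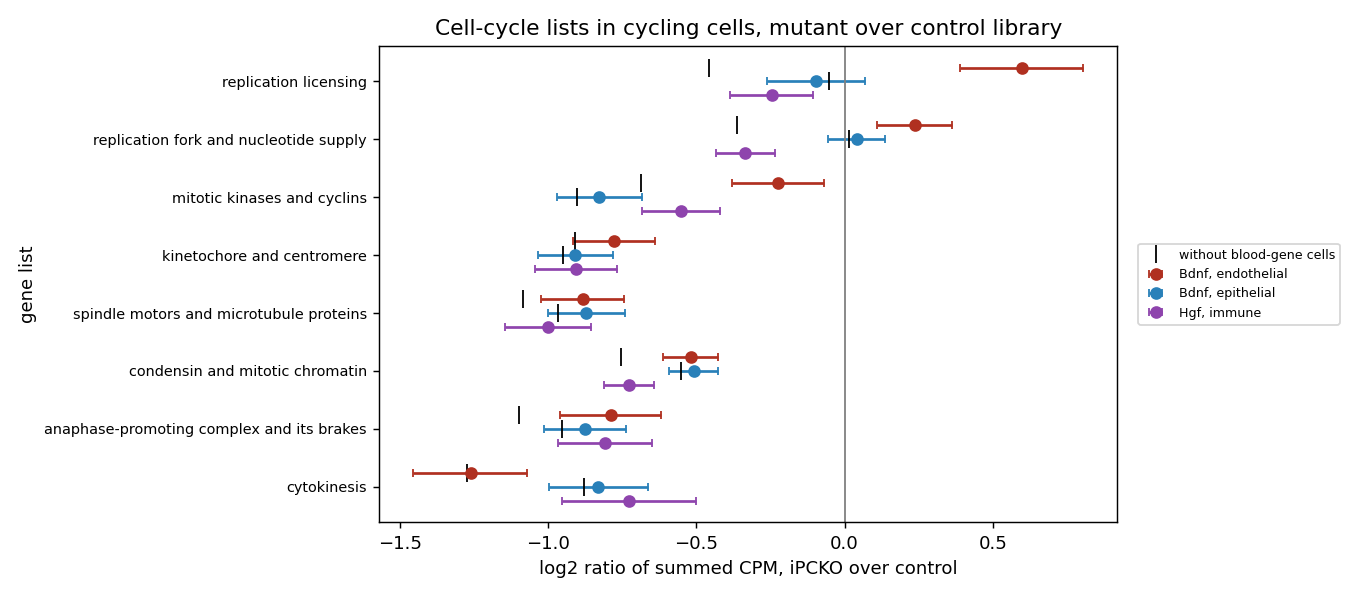
Log2 ratio of summed CPM, iPCKO over control, on the x axis for 8 cell-cycle gene lists, with bars for the 95% counting interval, in cycling endothelial and epithelial cells of the Bdnf pair and cycling immune cells of the Hgf pair. Black ticks give the Bdnf values without blood-gene cells. The 6 lists of G2 and M lie below 0 in all 3 comparisons, while the 2 S-phase lists lie above 0 in Bdnf endothelial cells with the blood-gene cells (0.60 and 0.24) and below 0 without them (-0.46 and -0.36).

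In cycling immune cells, 49 of the Hgf iPCKO against 28 of the Hgf control, 299 of 7456 genes (4.01%) were higher in the iPCKO library and 508 (6.81%) lower. This balance depended on the scaling, since with median-of-ratios scaling 467 were higher and 349 lower, or 57.2% of those past the fold higher in place of 37.1%. Genes of early B cells led the lower genes, with Vpreb3, a surrogate light chain gene, at 5 UMIs from 2 cells against 177 from 10 (-6.37, -8.01 to -5.12), Ebf1 at 2 against 98.4 from 9 (-6.84), Bach2 at -6.79, Pax5 and Vpreb1a at 0 against 36 each, and Igll1 at 0 against 55. B-cell markers together had a log2 ratio of -3.11 (-3.41 to -2.81), and they stood at -2.18 in the other immune cells. Il7r, the receptor for the lymphoid growth factor IL-7, had 2 UMIs against 73 from 11 cells (-6.41). Prss34, a basophil protease, had 0 against 240.0, of which 99.6% were in 1 cell.

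Of the 5 granulocyte-monocyte precursor genes in the blood list, which was chosen after values had been seen, 4 were past the fold upward in cycling immune cells of the Hgf iPCKO. Elane was not, at 0.74 (0.58 to 0.90), and Fcnb, a granule gene outside that list, stood at 230.5 CPM against 349.9 CPM. Prtn3 had 2257 UMIs from 38 cells against 476 from 10 (1.02, 0.88 to 1.17). Mpo had 2927 UMIs from 34 of 49 cells against 545 from 9 of 28 (1.20, 1.07 to 1.33), Ctsg, cathepsin G, 932 from 34 cells against 141 from 11 (1.5), and Ms4a3, a gene of granulocyte-monocyte precursors, 351 from 29 against 47 from 7 (1.68). Kit, the stem cell factor receptor, had 85 UMIs from 27 cells against 12 from 7 (1.60, 0.72 to 2.61). The 8 leading higher genes were not these but genes of plasma cells and others from few cells: Igha had 1688 UMIs, Jchain 409, Iglc3 988 and Iglc1 42 from 3 or 4 cells against 0, and Igkc 2389 against 50. Stfa1 and Cstdc5, stefins of myeloid cells, had 167 and 108 UMIs from 9 and 10 cells against 0. Ankrd36 had 52.3 UMIs against 0, with 91.4% in 1 cell.

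The immune cells of the Hgf iPCKO carried less of the mitotic genes in CPM. Spindle genes had a log2 ratio of -1.0 (-1.15 to -0.86) with 7 of 13 lower, kinetochore genes -0.91 (-1.05 to -0.77) with 3 of 10 lower, and cytokinesis genes -0.73 (-0.95 to -0.50) with 2 of 5 lower. Replication licensing genes had -0.25 (-0.39 to -0.11) with 0 of 11 lower. Hmmr, a spindle protein, had 52 UMIs against 81 (-1.86) and Plk1, the polo kinase, 32 against 39 (-1.51). Of 11 cycle brakes 6 were lower, among them Btg1 at -1.26, Btg2 at -1.24 and Cdkn1b (p27) at -1.24, and Ccnd3, the D-type cyclin of lymphoid cells, had 132 UMIs against 169 (-1.58). These cells differ in kind between the libraries. They were also chosen by the rule genes. Over all lineages a cycling cell had a median of 22 rule-gene UMIs in the Hgf iPCKO and 29 in the Hgf control. The part of both in the cell-cycle values was not tested.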

How the data were processed

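The authors mapped BD Rhapsody whole-transcriptome reads to GRCm39 with STARsolo (STAR 2.7.10a, unfiltered barcodes, multi-mapped reads shared by expectation maximisation) and deposited estimated counts of UMIs per gene and barcode, which need not be whole. The Gencode release is given as both vM33 and M26. Counts were used as deposited, without rounding. For the 147 symbols shared by several gene IDs, gene lists read the first ID, and the ranking of leading genes left these symbols out. Barcodes were kept with at least 1500 UMIs (Bdnf and cortex) or 700 UMIs (Hgf) and at most 25% mitochondrial UMIs. Doublets were not removed from the reported values. Scrublet in scanpy 1.11.5 (expected rate 0.1) scored them, and because its automatic threshold failed for the Hgf control, the lower threshold of each pair was applied to both libraries (0.182 and 0.409), which marked 13.6% and 14.8% of Bdnf cells and 2.67% and 2.90% of Hgf cells.

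UMIs were summed over cells of a library and divided by their total (CPM). Shares have exact Clopper-Pearson intervals, share ratios Katz intervals, and gene and list ratios conditional exact intervals, from scipy 1.17.1. Ratios against 0 UMIs used a floor of 3 UMIs per library. A gene entered a comparison when its UMIs summed over the compared cells reached 20. Steps were tested on simulated data. Named genes were the 8 rule genes, list members, per lineage the 10 genes outside the lists other than the blood list with the largest smallest cycling over other ratio, and per comparison the 8 genes in each direction whose interval lay farthest from 0, predicted and mitochondrial genes left out. Spn, the immunoglobulin genes and others named by this rule can rest on few cells. The members and lists were chosen with earlier results of these data known, and the blood list, the AT2 limits and the multiciliation limit were set after values had been seen. Some genes that this rule selects are not reported here.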

Additional observations from a re-analysis of the deposited data

How the results depend on the processing

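Each lung group is 1 library, so leaving out a replicate could not be done, and counting intervals do not cover differences between mice. No paired analysis was possible because each group has a single library and the labels give no shared replicate numbers. Some of the 169 alternative values of a cycling share ratio could not move. The UMI limit asked of all lung libraries was already that of the Bdnf pair, and other lineage rules cannot change a ratio over all cells. For Hgf control over Bdnf control the thinned values set cells at 700 UMIs against cells at 1500 UMIs. Of the 169 values, with these included, 158 stayed within the counting spread and none turned the direction of a ratio whose interval excluded 0. The others were, on the log2 scale, 0.066 and 0.058 for Hgf iPCKO over control in all cells without cells of at least 10 or 3 blood-list UMIs, 0 in immune cells (2 of 18 in each library) without them, -0.98 and -0.81 in epithelial cells after thinning and with the AT2 list at 0.5% or more, and -2.36 in mesenchymal cells with the alternative markers. For Hgf control over Bdnf control they were -1.75 and -1.97 in all cells without cells of at least 10 or 3 blood-list UMIs, -3.40 in endothelial cells without cells of at least 3, and -2.27 and -2.22 in epithelial cells with the AT2 list at 1% and at 0.5% or more. The blood and multiciliation alternatives and the AT2 limits were chosen after seeing the data.

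Genes past the fold numbered 1091, 773 and 807 in the Bdnf endothelial, Bdnf epithelial and Hgf immune comparisons, and 515, 380 and 393 with at least 50 UMIs asked of a gene, which leaves fewer genes to test. Without cells of at least 3 blood-list UMIs the Bdnf endothelial count was 670, and without blood-gene cells the Hgf immune count was 31, from 2 cells in each library. The S-phase share moved from 20.7% in the Bdnf control to 19.7% with at least 8 rule-gene UMIs, 19.4% without doublets, 15.6% with the alternative markers, and 17.5% and 18.2% without cells of at least 10 and 3 blood-list UMIs. For the Bdnf iPCKO it moved from 30.1% to 28.7% with at least 8 UMIs, 23.5% with the alternative markers, and 27.5% and 28.2% without blood-list cells. For the Hgf control it moved from 27.4% to 23.2% with the alternative markers and to 22.0% and 20.0% without blood-list cells, and for the Hgf iPCKO from 35.1% to 31.7%, 21.1% and 20.5%. The cause of these moves was not tested.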
